A study of Homo sapiens with 9 samples.

Results

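The E2F family and the E cyclins were described in RNA-seq data from THP-1, an established human acute myeloid leukaemia line that carries the MLL-AF9 fusion. The members were taken by gene symbol and were E2F1 to E2F8, CCNE1 and CCNE2, 10 genes of 58735 in the deposited count table, and all 10 were abundant enough to be tested. Every group was transduced by spinoculation with lentivirus made in 293T cells, put under puromycin from 24 hours and harvested at 48 hours, so the control cells carried a vector and were selected too. The control group received a non-targeting shRNA, and the other 2 groups received shRNA-143 or shRNA-146, which target the transcription factor gene NFATC2. There were 3 libraries of polyadenylated RNA per group, numbered 1 to 3. The series calls the replicates biological, but the labels name no separate cultures, so the p-values reflect differences among 3 libraries a group that may be no more than technical. The cells are a pool after selection, and in such bulk RNA fewer cells of a type and less RNA per cell cannot be told apart.

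E2F proteins bind DNA at the promoters of genes needed for DNA replication and cell division. E2F1, E2F2 and E2F3 are activators held in check by the retinoblastoma protein RB1. E2F4 and E2F5 are mainly repressors that work with the related pocket proteins, and E2F6 represses without pocket proteins. E2F7 and E2F8 are atypical members that repress without TFDP1 or TFDP2, the dimer partners of the other members. Cyclin E1 and cyclin E2, the products of CCNE1 and CCNE2, bind CDK2 at the entry to S phase, and both genes are themselves E2F targets.

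Of the 10 transcripts, E2F7 and CCNE2 rose with shRNA-146 in 1 of the 2 fits to all 9 libraries. E2F7 rose from a mean of 10.9 CPM (counts scaled to library size) in control to 19.0 CPM with shRNA-146, and CCNE2 rose from 8.77 to 15.2 CPM, with the replicate number fitted as a block. Neither passed the threshold without that block, and neither passed with shRNA-143 alone in either fit. CCNE1 had a lower mean with shRNA-143, 22.8 CPM against 32.7 CPM in control, but it and the 7 other E2F genes passed in no comparison of these fits. The totals for E2F1 to E2F8 overlapped between the 3 groups.

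Library totals ran from 40047459 to 44669709 counts. CPM is the count scaled to library size after TMM normalisation. The targeted gene checked the labels. NFATC2 had 12.7, 27.6 and 27.4 CPM in control libraries 1, 2 and 3, 1.49, 7.40 and 6.95 CPM with shRNA-143, and 2.59, 6.71 and 9.43 CPM with shRNA-146. All 6 knockdown libraries were below all 3 control libraries, and each held between 11.7% and 34.4% of the control library of its own number. By edgeR's quasi-likelihood test, with adjustment over all tested genes, the adjusted p was 0.497 for shRNA-143 and 0.464 for shRNA-146 without the block, and 0.00168 and 0.00435 with it. Libraries numbered 1 stood apart from the others with both shRNAs, and less clearly in control. Between libraries 2 and 3 the chi-square per degree of freedom was 22.4 for shRNA-143 and 33.1 for shRNA-146. Between library 1 and either of them it was 253 to 432 in these groups. In control it was 68.6 between libraries 2 and 3, and 191 and 86.1 between library 1 and libraries 2 and 3. Their distance from libraries 2 and 3 had an SD over all tested genes of 0.683 on the log2 scale for control, 0.889 for shRNA-143 and 1.11 for shRNA-146. Monocytic markers summed to between 852 and 994 CPM over all libraries, though CD68 lay between 0.102 and 0.538 CPM and CD14 between 0.961 and 4.04 CPM. Of markers of 293T, epithelial and neuronal cells, 5 of 8 were matched, and they summed to 4.06 to 4.87 CPM in control, 3.44 to 3.80 CPM with shRNA-143, then 2.21 to 2.76 CPM with shRNA-146, nearly all of it KRT8, while EPCAM, KRT18, NEFM and CDH2 were at 0 in some libraries. Lymphoid and erythroid markers, of which 2 of 7 were matched, summed to 1.60 to 2.62 CPM. With the block, MPO fell for the mean of both shRNAs, at a log2 fold change of -0.71 ± 0.11 (edgeR adjusted p 0.00904), and KRT8 fell with shRNA-146, at -0.85 ± 0.20 (0.0380). No other marker passed, and none did without the block. MPO lost its call without any 1 of the control libraries (up to 0.0917), and KRT8 without any of those or without library 2 or 3 of either shRNA (up to 0.164). The part of these markers in the results was not tested.

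Levels of different genes were compared per kilobase of deposited gene length. In control cells E2F1 was the most abundant member at 37.5 ± 6.02 CPM per kb (SD, n = 3), followed by E2F4 at 19.4 ± 2.63, CCNE1 at 12.8 ± 1.88, E2F3 at 10.8 ± 1.155 and E2F6 at 5.95 ± 0.663. E2F8 stood at 4.43 ± 1.42, E2F2 at 3.84 ± 0.889, CCNE2 at 1.99 ± 0.702, E2F7 at 1.73 ± 0.214 and E2F5 at 0.479 ± 0.0860 CPM per kb. The median tested gene had 2.35 CPM per kb, so E2F7, CCNE2 and E2F5 were below it and the other 7 members above. Neighbours whose control values overlapped were CCNE1 and E2F3, E2F6 and E2F8, E2F8 and E2F2, and CCNE2 and E2F7. Within a library E2F8 was above E2F2 in 9 of 9, as E2F1 was above E2F4 and E2F4 above CCNE1. The order of CCNE1 and E2F3 held in 6 of 9 libraries, that of E2F6 and E2F8 in 5 of 9, and that of CCNE2 and E2F7 in 7 of 9. E2F1 alone made up between 37.9% and 49.8% of the summed level of the 8 E2F genes per kb.

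**Figure D1:**
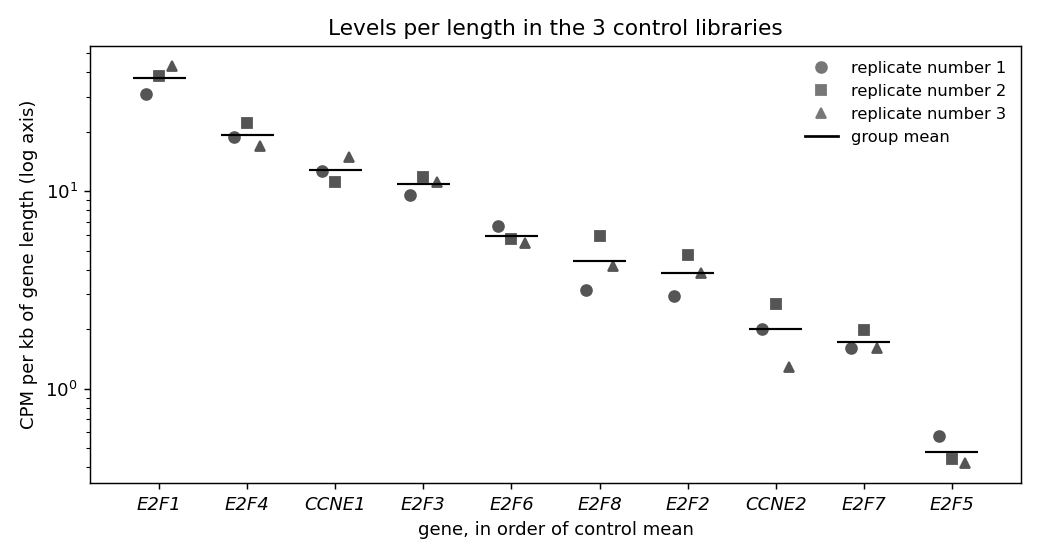
Level of each member in the 3 control libraries, in CPM per kb of gene length on a log axis, in order of the control mean (horizontal lines). Points are libraries by replicate number, and the range runs from E2F1 at 37.5 to E2F5 at 0.479 CPM per kb.

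The summed level of E2F1 to E2F8 was 74.7, 91.1 and 86.8 CPM per kb in control libraries 1, 2 and 3. With shRNA-143 it was 75.9, 88.4 and 91.6 CPM per kb, and with shRNA-146 it was 70.2, 99.1 and 97.1 CPM per kb. In each group the library numbered 1 was lowest, and the 3 groups overlapped.

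None of the 10 members passed an adjusted p of 0.05 by edgeR's quasi-likelihood test without the block, in any of 4 comparisons. DESeq2 and limma-voom called 0 as well. The background called in those edgeR comparisons was also close to nothing. It was 0.0467% of 14975 tested genes for shRNA-143 against control, 0.0334% for shRNA-146 against control, 0.0334% for both shRNAs averaged against control, and 0.0467% for shRNA-146 against shRNA-143. At an unadjusted p under 0.05 in the same fit, CCNE1 was lower with shRNA-143 (1 of 10 members, against 6.8% of all genes), E2F7 and CCNE2 were higher with shRNA-146 (2 of 10, against 8.81%) and for the mean of both (2 of 10, against 9.34%), and CCNE1 was higher with shRNA-146 than with shRNA-143 (1 of 10, against 3.75%).

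Same-numbered libraries tended to deviate alike from their group means, so the number was also entered as a block. Pairs numbered 1 correlated at 0.664 to 0.758 and pairs numbered 3 at 0.252 to 0.558. A library 2 and a library 3 of different groups correlated at 0.101 to 0.535, so number 3 was less clearly paired. With the block, edgeR called 0 of 10 members for shRNA-143 against control, where 3.17% of all genes were called. There 2 members in each direction had an unadjusted p under 0.05, as did 20.7% of all genes. It called 2 of 10 for shRNA-146 against control, E2F7 and CCNE2, both higher, where 4.42% of all genes were called and 2.46% were called as higher. The same 2 members were called as higher for the mean of both shRNAs, where 5.74% of genes were called and 2.98% as higher. For shRNA-146 against shRNA-143 it called 0 of 10, where 1.2% of genes were called, and 3 members had an unadjusted p under 0.05, as did 10.4% of genes. The comparisons with control share the 3 control libraries.

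**Figure D2:**
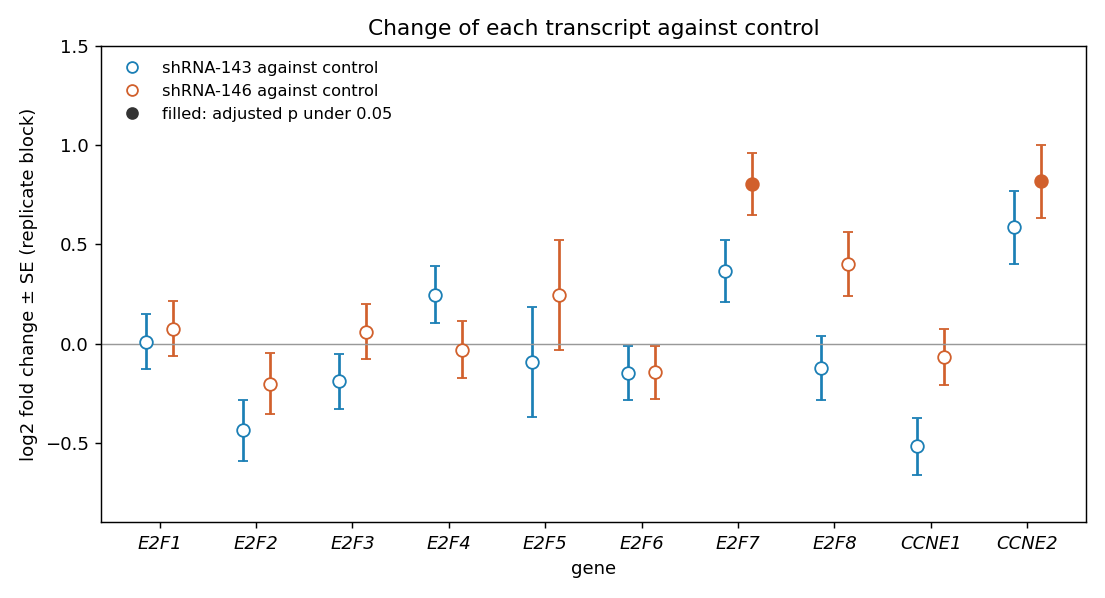
Log2 fold change of each member against control, with its standard error, for shRNA-143 (blue) and shRNA-146 (orange), from the edgeR block fit. Filled points have an adjusted p under 0.05, which E2F7 and CCNE2 had with shRNA-146.

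Among the activators, E2F1 had nearly the same level in control and with shRNA-143, while its shRNA-146 libraries lay on both sides of control. It stood at 78.1, 95.6 and 108 CPM in control libraries 1, 2 and 3, at 78.4, 95.0 and 111 CPM with shRNA-143, and at 66.6, 116 and 120.2 CPM with shRNA-146. The groups overlapped, and library by library the shRNA-143 values were 100.3%, 99.3% and 102% of the control of the same number. The shRNA-146 values were 85.3%, 122% and 111% of it. With the block the log2 fold change was 0.01 ± 0.14 (SE) for shRNA-143, with an adjusted p of 0.980 by edgeR, and 0.07 ± 0.14 for shRNA-146, with an adjusted p of 0.791. Both were under the standard error, and the sign for shRNA-143 turned to -0.01 under upper quartile scaling.

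E2F2, a close relative of E2F1, had 16.1, 25.8 and 21.0 CPM in control, 10.02, 19.0 and 18.5 CPM with shRNA-143, and 12.1, 20.7 and 22.9 CPM with shRNA-146. It was lower than the control of the same number in 3 of 3 libraries with shRNA-143, though the groups overlapped. With the block the log2 fold change was -0.44 ± 0.15 for shRNA-143, with an edgeR adjusted p of 0.143, and -0.20 ± 0.15 for shRNA-146, with an adjusted p of 0.457. E2F2 passed the threshold for shRNA-143 only when shRNA-146 library 1 was left out of the block fit, at an adjusted p of 0.0488 by edgeR. In that fit 2099 genes were called for shRNA-143, against 474 with all 9 libraries.

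E2F3, which is transcribed from 2 promoters in the RefSeq table, had 49.5, 61.3 and 57.2 CPM in control, 43.7, 52.9 and 50.6 CPM with shRNA-143, and 62.3, 59.8 and 52.3 CPM with shRNA-146. The shRNA-143 libraries were 86.4% to 88.5% of the control of the same number, a narrow range. With the block the log2 fold change was -0.19 ± 0.14 for shRNA-143 and 0.06 ± 0.14 for shRNA-146, with edgeR adjusted p of 0.466 and 0.835.

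The promoters of these 3 activators are shown because each holds a match to an E2F site, beside that of E2F7, the member with the smallest p in the shRNA-146 comparison, which holds none. Each is the 100 bases before the RefSeq transcript start on GRCh38.p14, 5′ to 3′ on the gene's strand. Capitals mark a match to TTTCGCGC, TTTGGCGC, TTTCCCGC or TTTGCCGC on either strand. In order, the regions are chr20:33686386-33686485 (minus strand), chr1:23531234-23531333 (minus strand), chr6:20401779-20401878 (plus strand) and chr12:77065570-77065669 (minus strand).
E2F1: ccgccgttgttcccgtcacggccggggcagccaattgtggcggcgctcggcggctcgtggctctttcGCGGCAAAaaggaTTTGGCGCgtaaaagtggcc
E2F2: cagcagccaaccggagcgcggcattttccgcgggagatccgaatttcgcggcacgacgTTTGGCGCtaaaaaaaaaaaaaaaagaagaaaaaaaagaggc
E2F3 promoter 1: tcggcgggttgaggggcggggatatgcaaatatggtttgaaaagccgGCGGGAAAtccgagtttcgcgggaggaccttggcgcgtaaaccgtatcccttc
E2F7: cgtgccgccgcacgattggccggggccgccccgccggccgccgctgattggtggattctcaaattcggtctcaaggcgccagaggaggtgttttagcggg

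E2F1 held 2 matches, which begin 33 and 20 bases before the start. E2F2 held 1, at 42 bases, and the first E2F3 promoter held 1, at 53 bases. The search covered 250 bases before each start, and 7 of the 10 members had an entry, with 8 promoters in all. A match was found in 3 of the 8, against 979 of 35116 promoters in the whole table (2.79%), and none in the second E2F3 promoter or those of E2F4, E2F6, E2F7 and CCNE1. The table held no entry for E2F5, E2F8 or CCNE2. GGAAAA, the core that NFAT proteins bind, was searched on both strands as well, and a match to it can share bases with a match to TTTCCCGC. E2F2 held 1 match and E2F6 held 2, and 21.2% of all promoters held at least 1. A match is a description of letters and not a bound site.

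Of the repressors, E2F4 had 67.6, 79.5 and 60.9 CPM in control, 83.1, 84.4 and 77.9 CPM with shRNA-143, and 55.0, 78.1 and 70.9 CPM with shRNA-146. It was higher than the control of the same number in 3 of 3 libraries with shRNA-143, and the groups overlapped. With the block the log2 fold change was 0.25 ± 0.14 for shRNA-143, with an edgeR adjusted p of 0.352. It was -0.03 ± 0.14 for shRNA-146, with an adjusted p of 0.926, and that sign turned to 0.10 with library size scaling.

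E2F5, the least abundant member, had 3.42, 2.61 and 2.48 CPM in control, 2.46, 2.57 and 2.71 CPM with shRNA-143, and 5.81, 2.48 and 2.34 CPM with shRNA-146. Library 1 of shRNA-146 was the only one above 3.42 CPM, at 241% of the mean of libraries 2 and 3 of its group. These values come from 91 to 229 counts per library. The log2 fold change for shRNA-146 was 0.25 ± 0.28 with the block, with an edgeR adjusted p of 0.637, and -0.08 without the libraries numbered 1, a setting chosen after the data were seen. In GENCODE release 29, 16.3% of the E2F5 exon bases overlap C8orf59 on the other strand. No source used here says whether counting used strand, so reads from the 2 genes may not have been told apart.

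E2F6, which represses through a polycomb-type complex, had 27.3, 23.2 and 22.2 CPM in control, 26.3, 19.4 and 20.03 CPM with shRNA-143, and 24.9, 22.5 and 18.4 CPM with shRNA-146. It was slightly below the control of the same number in all 6 knockdown libraries, between 82.9% and 97.1% of it. The groups overlapped, and with the block the log2 fold change was -0.15 ± 0.14 for shRNA-143 and -0.15 ± 0.14 for shRNA-146, with edgeR adjusted p of 0.565 and 0.562.

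Both atypical repressors were highest with shRNA-146. E2F7 had 10.1, 12.4 and 10.1 CPM in control libraries 1, 2 and 3, 11.3, 16.7 and 14.4 CPM with shRNA-143, and 16.7, 19.1 and 21.2 CPM with shRNA-146. All 3 shRNA-146 libraries were above all 3 control libraries, whereas 1 of the 3 shRNA-143 libraries lay inside the control range. Against the control of the same number, E2F7 stood at 165%, 153% and 210% with shRNA-146 and at 111%, 134% and 143.02% with shRNA-143. It was the only member whose groups did not overlap between shRNA-146 and control, where 14.7% of all genes did not overlap. Between control and all 6 knockdown libraries together, 0 members and 5.85% of all genes did not overlap.

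The log2 fold change of E2F7 with shRNA-146 was 0.80 ± 0.21 without the block, with an edgeR adjusted p of 0.390. With the block it was 0.80 ± 0.16, a 1.74-fold rise with an edgeR adjusted p of 0.0213. For the mean of both shRNAs it was 0.58 ± 0.14 with the block, a 1.499-fold rise at an adjusted p of 0.0366, and 0.59 ± 0.19 without it, at 0.400. For shRNA-143 alone it was 0.37 ± 0.16 with the block, at an adjusted p of 0.217. The difference between the shRNAs, 0.44 ± 0.16, had an adjusted p of 0.311, so a difference in response between them was not shown.

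The call for E2F7 rested on small margins. When each of the 9 libraries was left out in turn from the block fit, the log2 fold change for shRNA-146 stayed between 0.70 and 0.91 and the call held in 4 of 9 fits. The edgeR adjusted p rose to 0.0620, 0.114 and 0.129 without control libraries 1, 2 and 3, to 0.0549 without shRNA-143 library 2 and to 0.0614 without shRNA-146 library 3. For the mean of both shRNAs the call held in 3 of 9 fits, with adjusted p of 0.0780, 0.165 and 0.230 without control libraries 1, 2 and 3, 0.142 and 0.110 without shRNA-143 libraries 2 and 3, and 0.0526 without shRNA-146 library 2. It was also lost, at 0.51 and an adjusted p of 0.0546, with a correction for gene length. With all libraries numbered 1 left out, chosen after the data were seen, E2F7 was called without the block, at 0.84 for shRNA-146 and an edgeR adjusted p of 0.0204. In that setting 951 genes were called for shRNA-146, against 5 with all libraries and no block, so the call is not particular to E2F7.

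E2F8, the other atypical repressor, had 13.1, 24.7 and 17.3 CPM in control, 9.92, 21.8 and 19.8 CPM with shRNA-143, and 17.2, 26.9 and 27.8 CPM with shRNA-146. It was above the control of the same number in 3 of 3 libraries with shRNA-146 and above the shRNA-143 library of the same number in 3 of 3. The groups overlapped, and library 1 was the lowest in each. With the block the log2 fold change was 0.40 ± 0.16 for shRNA-146 against control, with an edgeR adjusted p of 0.165, and 0.52 ± 0.16 for shRNA-146 against shRNA-143, with an adjusted p of 0.216. Neither passed.

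The ratio of E2F7 to E2F8 per kb was 0.508, 0.332 and 0.384 in control libraries 1, 2 and 3. It was 0.747, 0.503 and 0.478 with shRNA-143 and 0.637, 0.465 and 0.500 with shRNA-146. Within each number both knockdown libraries were above the control, and across numbers the groups overlapped. The ratio of the activators E2F1 to E2F3 to the atypical repressors per kb was 9.18, 6.91 and 10.1 in control, 9.94, 6.52 and 8.10 with shRNA-143, and 6.01, 6.49 and 6.18 with shRNA-146. All 3 shRNA-146 values were below all 3 control values, and none of E2F1 to E2F3 passed the test in that comparison. E2F7, which is part of this ratio, did not overlap there by itself, nor did 14.7% of all genes. How often ratios of other genes separate these groups was not tested.

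**Figure D3:**
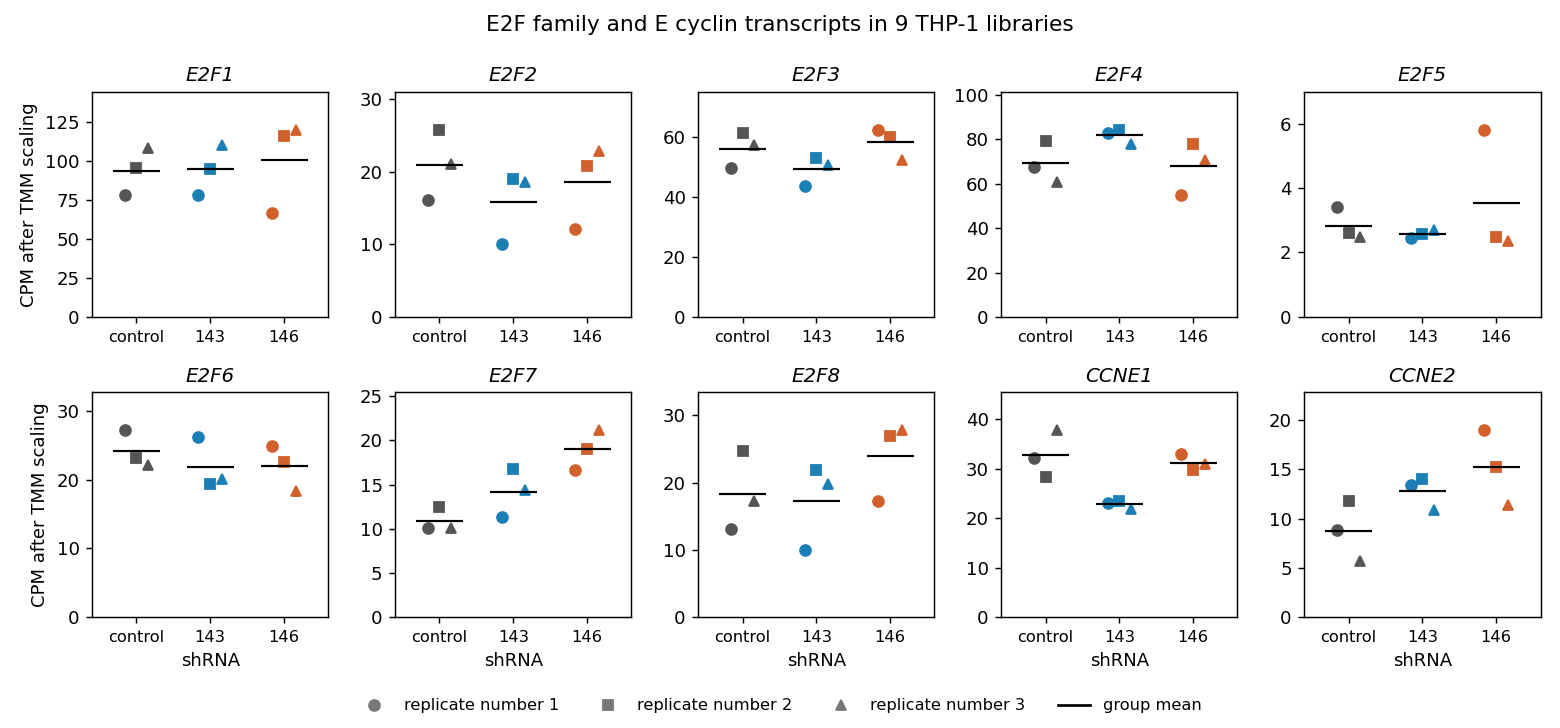
CPM after TMM scaling of each member in each of the 9 libraries, by group, with the replicate number as the marker shape and the group mean as a line. E2F7 is higher in all shRNA-146 libraries than in all control libraries, and CCNE1 is lower in all shRNA-143 libraries than in the others.

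Of the E cyclins, CCNE1 had 32.2, 28.3 and 37.8 CPM in control libraries 1, 2 and 3, 23.0, 23.5 and 21.9 CPM with shRNA-143, and 32.9, 29.6 and 30.9 CPM with shRNA-146. All 3 shRNA-143 libraries were below all 6 others, with a mean of 22.8 ± 0.814 CPM (SD, n = 3) against 32.7 ± 4.79 in control and 31.2 ± 1.65 with shRNA-146. CCNE1 was the only member whose groups did not overlap between shRNA-143 and control, where 15.2% of all genes did not, and between shRNA-146 and shRNA-143, where 8.17% did not.

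The log2 fold change of CCNE1 with shRNA-143 was -0.52 ± 0.18 without the block, with an edgeR adjusted p of 0.553, and -0.52 ± 0.14 with it, at 0.0781, so CCNE1 did not pass. It passed in the block fit without shRNA-146 library 1, at an adjusted p of 0.0188, without shRNA-146 library 3, at 0.0487, and without all libraries numbered 1, at 0.0437, the last chosen after the data were seen. Calls over all genes also rose in these settings, to 2099, 1050 and 1575 in that order, from 474 with all 9 libraries. With shRNA-146 it was -0.07 ± 0.14 with the block, at an adjusted p of 0.819, and it turned to 0.07 with library size scaling and to 0.08 with a length correction. The difference between the shRNAs was 0.45 ± 0.14 with the block, with an edgeR adjusted p of 0.233. NFATC2 had fallen with both shRNAs, and its own difference between them was 0.31 ± 0.23 with an adjusted p of 0.713.

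CCNE2 had 8.81, 11.8 and 5.66 CPM in control libraries 1, 2 and 3, 13.5, 14.03 and 10.9 CPM with shRNA-143, and 19.0, 15.2 and 11.4 CPM with shRNA-146. It was above the control of the same number in all 6 knockdown libraries, at 119% to 192% with shRNA-143 and 129% to 216% with shRNA-146. The groups overlapped, since control library 2 was above library 3 of both shRNAs. Control library 3 was the lowest of the 9.

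The log2 fold change of CCNE2 with shRNA-146 was 0.79 ± 0.30 without the block, with an edgeR adjusted p of 0.510. With the block it was 0.82 ± 0.19, a 1.76-fold rise with an edgeR adjusted p of 0.0368, and for the mean of both shRNAs it was 0.70 ± 0.17, a 1.63-fold rise at 0.0357. For shRNA-143 alone it was 0.59 ± 0.19 with the block, at an adjusted p of 0.115, and it passed only without shRNA-146 library 1, at 0.0302, where 2099 genes were called. The difference between the shRNAs was 0.23 ± 0.18 with an adjusted p of 0.728.

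The shRNA-146 call for CCNE2 held in 2 of 9 block fits that each left out a library, with a log2 fold change between 0.66 and 1.03. The edgeR adjusted p rose to 0.124, 0.0785 and 0.185 without control libraries 1, 2 and 3, to 0.0735 and 0.0535 without shRNA-143 libraries 2 and 3, and to 0.0552 and 0.0599 without shRNA-146 libraries 2 and 3. For the mean of both it held in 4 of 9, with 0.126, 0.0857 and 0.235 without control libraries 1, 2 and 3, and 0.0955 and 0.108 without shRNA-143 libraries 2 and 3. Without the libraries numbered 1, chosen after the data were seen, the block fit gave 0.66 for shRNA-146 at an adjusted p of 0.0430. There 2111 genes were called, against 662 with all 9 libraries.

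In GENCODE release 29, 37% of the CCNE2 exon bases overlap INTS8, a subunit of the Integrator complex encoded on the other strand. INTS8 had 35.8, 34.5 and 30.2 CPM in control, 43.2, 33.6 and 34.7 CPM with shRNA-143, and 65.8, 39.4 and 36.02 CPM with shRNA-146. It was highest in shRNA-146 library 1, as CCNE2 was. With the block its log2 fold change with shRNA-146 was 0.45 ± 0.16, with an edgeR adjusted p of 0.127. Whether reads of INTS8 entered the CCNE2 counts was not tested.

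Per kb, the ratio of CCNE1 to CCNE2 was 6.30, 4.12 and 11.5 in control libraries 1, 2 and 3. It was 2.94, 2.88 and 3.47 with shRNA-143 and 2.99, 3.36 and 4.69 with shRNA-146. CCNE1 was the more abundant cyclin in all 9 libraries, and within each number both knockdown libraries had a lower ratio than control. The summed level of the 2 cyclins was 14.6, 13.8 and 16.1 CPM per kb in control, 12.1, 12.4 and 11.05 CPM per kb with shRNA-143, and 17.2, 15.1 and 14.7 CPM per kb with shRNA-146. The sum was lower in all shRNA-143 libraries than in all control libraries, while shRNA-146 overlapped control. CCNE1, the larger part of the sum, did not overlap between shRNA-143 and control by itself, nor did 15.2% of all genes.

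Counted by sign, 7 of 10 members moved the same way in all 3 replicate numbers with shRNA-143, against 53.7% of all genes. E2F2, E2F3, E2F6 and CCNE1 were lower there, and E2F4, E2F7 and CCNE2 were higher. With shRNA-146 it was 4 of 10, against 41.3%, with E2F6 lower and E2F7, E2F8 and CCNE2 higher. For the mean of both it was 6 of 10, against 48.8%. Between the shRNAs 7 of 10 had 1 sign in all numbers, against 33.6% of all genes, with E2F4 lower with shRNA-146 and E2F2, E2F3, E2F7, E2F8, CCNE1 and CCNE2 higher. The members' median log2 fold change with the block was -0.11 for shRNA-143 and 0.07 for shRNA-146, where the medians over all genes were 0.00 and 0.02. For shRNA-146 against shRNA-143 it was 0.24, with 9 of 10 members above 0, beside a median of 0.00 over all genes.

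E2F8, E2F2 and E2F1 were lowest in library 1 of every group. For E2F8, library 1 minus the mean of libraries 2 and 3 was -0.66 in log2 CPM for the control group, -1.06 for shRNA-143 and -0.67 for shRNA-146. For E2F2 the differences were -0.53, -0.90 and -0.84, and for E2F1 they were -0.38, -0.39 and -0.83. E2F6 went the other way, at 0.27, 0.41 and 0.29. CCNE1 was at -0.02, 0.02 and 0.12, although in control its libraries 2 and 3 differed from each other by -0.42. E2F5 stood at 0.42, -0.10 and 1.25. E2F8 and E2F2 with shRNA-143, and E2F5 with shRNA-146 in the other direction, exceeded the SD over all genes of their group given above, and the labels do not state what a number has in common.

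For each member the gene with the most similar profile was found among all tested protein-coding genes, by the root mean square difference of centred log2 CPM over the 9 libraries. It was FNDC3B for E2F7, at 0.102, where the median over all genes was 0.559. For CCNE2 it was IBTK at 0.131, and for CCNE1 it was CKAP4 at 0.0944. The others were CNP for E2F1 (0.0748), SLC45A4 for E2F2 (0.0901), USP13 for E2F3 (0.0670), TBC1D13 for E2F4 (0.0709), ZUP1 for E2F5 (0.132), APEX1 for E2F6 (0.0660) and SUFU for E2F8 (0.0761). No member was the closest gene to another. The closest pairs among members were CCNE1 with E2F3 at 0.214, E2F3 with E2F6 at 0.257 and E2F2 with E2F8 at 0.263. Genes that vary little lie close by this measure. The root mean square deviation from the gene's own mean was 0.158 for E2F3, 0.185 for E2F6 and 0.253 for CCNE1. It was 0.413 for E2F2 and 0.464 for E2F8. E2F3 and E2F6 differed by more than either varied, so their closeness does not show shared movement, and 0.214 also exceeds the deviation of E2F3.

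Genes around the family in the pathway were counted from lists, with the block and for the mean of both shRNAs, and none of them passed without the block. Of the dimer partners and pocket proteins, which include TFDP1, TFDP2, RB1, RBL1 and RBL2, 0 of 5 tested genes passed, with a median log2 fold change of 0.24 beside 0.01 for all genes. RB1 stood at 0.24 ± 0.12 with an edgeR adjusted p of 0.247. Of the MuvB, MYB and FOXM1 genes, which act later in the cycle, 0 of 8 passed, with a median of 0.01. Of the E2F6 complex, 1 of 12 passed, WDR5, a scaffold protein of chromatin complexes, which fell, at a log2 fold change of -0.44 ± 0.11 (edgeR adjusted p 0.0412). With shRNA-143 it was at -0.70 (0.0183).

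Of CDK2 and its regulators, 3 of 14 passed, where 5.74% of all genes did, and the list's median was -0.19, with 5 of 14 genes above 0. CDKN1A and CDKN1B, which encode the CDK inhibitors p21 and p27, rose, and CDK7, the kinase of the CDK-activating complex, fell. CDKN1B rose with both shRNAs, by 0.67 with shRNA-143 (edgeR adjusted p 0.0204) and 0.75 with shRNA-146 (0.0112). CDKN1A rose with shRNA-146, by 1.47 ± 0.22 (adjusted p 0.00764), and for the mean of both by 0.95 ± 0.19 (0.0231). It did not pass with shRNA-143 alone. With shRNA-146 it was higher than with shRNA-143 by 1.04, at an edgeR adjusted p of 0.04998. That last call held in 1 of 9 block fits that each left out a library. CDK7 stood at -0.49 ± 0.12 (0.0418). CDK2 itself was at -0.26 ± 0.11 with an adjusted p of 0.163. Of the genes for turnover of cyclin E and E2F proteins, 0 of 7 passed, and FBXW7, the subunit that recognises cyclin E, stood at 0.49 ± 0.18 with an adjusted p of 0.118. Of the D cyclins, CDK4/6 and INK4 inhibitors, 0 of 7 tested passed, with a median of -0.12.

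Of 58 E2F target genes of the G1/S transition, 0 rose and 3 fell for the mean of both shRNAs, with a median of -0.12 beside 0.01 for all genes, and 13 of 58 were above 0. The 3 were RRM2, the small subunit of ribonucleotide reductase, at -0.48 ± 0.12 (edgeR adjusted p 0.0469), and the histone chaperone genes CHAF1B at -0.45 ± 0.11 (0.0430) and ASF1B at -0.43 ± 0.10 (0.0375). The share that passed, 3 of 58, is near the 5.74% of all genes. RRM2 fell with shRNA-143, by -1.21 ± 0.15 (adjusted p 0.00287), and was higher with shRNA-146 than with shRNA-143 by 1.45 ± 0.15 (0.00109). Both of these RRM2 calls held in all 9 block fits that each left out a library. The difference between the shRNAs was larger than the fall with shRNA-143, so RRM2 was not lower with shRNA-146 than in control. Its fall for the mean of both came from shRNA-143 alone. GINS1, part of the replicative helicase, fell with shRNA-143 at -0.58 ± 0.13 (0.0372), and CHAF1B with shRNA-146 at -0.68 ± 0.13 (0.0206). Summed over the list, the targets reached 6269, 6779 and 6611 CPM in control libraries 1, 2 and 3, 5358, 6072 and 6141 CPM with shRNA-143, and 5913, 5915 and 5958 CPM with shRNA-146. After TMM scaling all 6 knockdown libraries were below all 3 control libraries. The TMM factors ran from 0.897 in control library 1 to 1.14 in shRNA-146 library 3. They were 0.918 in control library 3, 1.10 and 1.05 in libraries 2 and 3 of shRNA-143, and 1.09 in shRNA-146 library 2. Undoing the scaling multiplies each sum by its factor. Libraries 2 and 3 of both shRNAs then lie above control libraries 1 and 3, so without TMM scaling the groups overlap. How often sums over other lists stay apart was not tested.

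The other pathway calls depended on single libraries in the block fits that left out 1 at a time. For the mean of both shRNAs, CDKN1B held in 7 of 9 fits and was lost without control library 2 or 3 (adjusted p up to 0.0888), and CDKN1A held in 6 of 9 and was lost without any of the 3 control libraries (up to 0.179). With shRNA-146, CDKN1A was lost without control library 2 or 3 (up to 0.0727), CDKN1B without any control library (up to 0.0909), and CHAF1B without any control library, shRNA-143 library 2 or shRNA-146 library 2 (up to 0.124). With shRNA-143, WDR5 (up to 0.175) and CDKN1B (up to 0.172) were lost without any library of control or shRNA-143, and GINS1 (up to 0.260) also without shRNA-146 library 2. For the mean of both, WDR5, CDK7 and RRM2 held in 1 of 9 fits each and CHAF1B and ASF1B in 2 of 9 each. All 5 were lost without any library of control or shRNA-143 and without shRNA-146 library 2, and WDR5, CDK7 and RRM2 without shRNA-146 library 3 too. Their adjusted p rose to between 0.199 and 0.291. For the mean of both shRNAs with library size scaling in the block fit, CDKN1A and CDKN1B remained called. There 0 of the 58 targets passed, their median being -0.01 beside 0.12 for all genes. In that setting RRM2 remained called with shRNA-143, at -1.11 (edgeR adjusted p 0.00450), and between the shRNAs, at 1.49 (0.00122). Without the libraries numbered 1, chosen after the data were seen, 2 targets rose and 12 fell for the mean of both in the block fit, with a median of -0.14. In that setting 2902 genes were called over all tested genes.

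**Figure D4:**
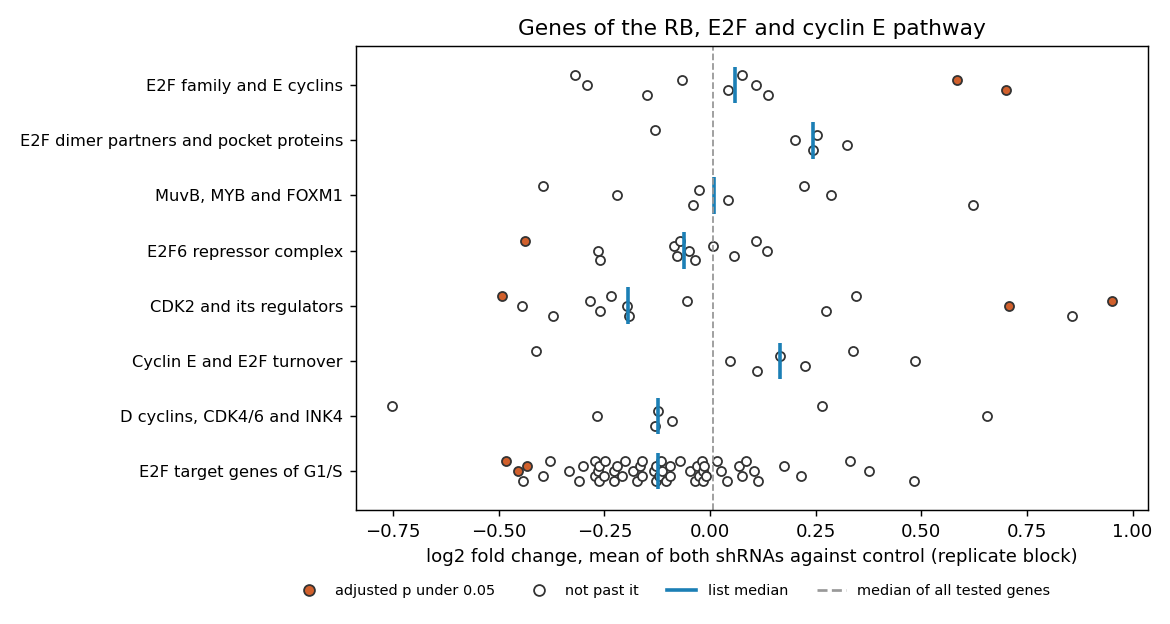
Log2 fold change of every tested gene in 8 pathway lists for the average of both shRNAs against control, from the block fit. Each point is a gene, filled where the adjusted p is under 0.05, blue lines are list medians and the dashed line is the median of all tested genes at 0.01.

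In the authors' deposited table no member had an adjusted p under 0.05 in either comparison. In that table E2F7 with shRNA-146 had a log2 fold change of 0.81, a p of 0.00306 and an adjusted p of 0.221. The authors' deposited table gave CCNE2 with shRNA-146 as 0.80 with an adjusted p of 0.611, and CCNE1 with shRNA-143 as -0.51 with a p of 0.0184 and an adjusted p of 0.433. NFATC2 stood at -2.07 and -1.84 in the authors' deposited table, with adjusted p of 0.0206 and 0.0398.

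The positions of E2F7 and CCNE1 on hg38 are those of the deposited table. E2F7 (ENSG00000165891) is on the minus strand of chromosome 12 from 77021247 to 77065580, and CCNE1 (ENSG00000105173) on the plus strand of chromosome 19 from 29811898 to 29824308. CCNE2 (ENSG00000175305) is on the minus strand of chromosome 8. E2F1, E2F2, E2F3, E2F4, E2F6, E2F7 and CCNE1 share no exon bases with another gene in GENCODE release 29. Processed pseudogenes of E2F3, E2F4 and E2F6 held at most 7 counts in a library, against at least 814 for E2F6, the least counted of the 3.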

How the data were processed

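RNA was sequenced from 9 THP-1 libraries, 3 in each of 3 groups set by the labels. The authors deposited raw counts per gene, gene lengths, and a table of log2 fold changes, p-values and adjusted p-values for each shRNA against control. Tools named in the submitters' processing notes are fastp, STAR 2.5, featureCounts and DESeq2, with the hg38 build. The test behind the deposited p-values, and whether counting used strand, are not given in the sources used here.

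From the counts, 14975 genes passed edgeR's filterByExpr and held 99.9% or more of each library's counts. They were scaled by TMM and tested with the quasi-likelihood test of edgeR 4.0.16 on R 4.3.3, in 1 fit of 3 groups with 6 residual degrees of freedom. Benjamini-Hochberg adjustment ran over all tested genes, with a threshold of 0.05. Log2 CPM used a prior count of 2. Standard errors are those implied by the fold change and its F statistic. Libraries of a group differed by a chi-square per degree of freedom of 22.4 to 432, so none repeated another. The script was tested on simulated counts.

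The pairing was checked on deviations from group means: the 9 pairs that share a number correlated at 0.252 to 0.758, and other pairs at -0.678 to 0.535. Deviations within a group cancel out, which by itself lowers the correlations between different numbers. The labels give a number only. The fit with the number as a block has 4 residual degrees of freedom.

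The members and gene lists were chosen with earlier results of these data known. All members were named, with list genes past the threshold and the closest gene to each member. Alternatives were other scalings, DESeq2 1.42.0, limma-voom (limma 3.58.1), no filter on low counts, a length correction, and leaving out libraries. Of 150 listed symbols, 140 were matched. Promoters are RefSeq's on GRCh38.p14, and overlaps are from GENCODE release 29.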

Additional observations from a re-analysis of the deposited data

How the results depend on the processing

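With the replicate number as a block, the count of members called went from 0 to 2 for shRNA-146 against control and to 2 for the mean of both shRNAs, and stayed at 0 in the other 2 comparisons. The pairing rests on the correlations of the libraries. Over all tested genes the block moved the calls from 7 to 474 (shRNA-143), 5 to 662 (shRNA-146), 5 to 859 (mean of both) and 7 to 179 (shRNA-146 against shRNA-143). The block with length correction gave 2 members for shRNA-146 and 1 for the mean, and 415, 491, 636 and 204 genes in the same order. The block with library size scaling gave 2 and 2 members, and 414, 835, 858 and 186 genes. DESeq2 gave 0 members and 141, 154, 185 and 84 genes, and library size scaling without the block gave 16 genes for shRNA-143 and 2 for shRNA-146. Without the libraries numbered 1, chosen after the data were seen, 1 member was called for shRNA-146 and 1 for the mean, with 589, 951, 1525 and 160 genes. With the block added there, 1, 2 and 2 members were called in the comparisons with control, with 1575, 2111, 2902 and 319 genes. The cause was not tested.

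Leaving out each library in turn, without and with the block, gave 0 to 3 members for shRNA-143, 0 to 2 for shRNA-146, 0 to 2 for the mean and 0 between the shRNAs, and 1 to 2099, 0 to 1745, 0 to 3075 and 0 to 344 genes. Of 40 member results, 23 kept their sign in all 30 settings, 7 were called in at least 1 setting, and 33 in none. No member result whose sign turned was called in any of these settings. Library size scaling moves the median of all genes from 0.02 to 0.12 (shRNA-143), 0.05 to 0.19 (shRNA-146) and 0.03 to 0.15 (mean). It gave 0.018 for E2F8 with shRNA-143, 0.12 for E2F4 and 0.070 for CCNE1 with shRNA-146, and 0.044 for E2F3 for the mean. With the block it gave 0.0024 for E2F5 with shRNA-143, 0.10 for E2F4 and 0.070 for CCNE1 with shRNA-146, and 0.050 for E2F3 for the mean. With shRNA-146 a length correction gave 0.031 for E2F4 and 0.078 for CCNE1, and with the block 0.031 and 0.081. Upper quartile scaling gave -0.011 for E2F1 with shRNA-143 and -0.014 for E2F6 between the shRNAs, where DESeq2 gave -0.0059 and no filter -0.0034.

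Without the libraries numbered 1, in fits without and with the block, E2F5 turned to 0.058 and 0.059 with shRNA-143, -0.076 with shRNA-146, -0.0088 and -0.0084 for the mean, and -0.13 between the shRNAs. E2F3 turned to -0.077 and -0.079 and E2F4 to 0.086 and 0.096 with shRNA-146, and E2F8 to 0.0070 with shRNA-143 in the block fit. With 1 library left out, ranges that crossed 0 were as follows. With shRNA-143 they were -0.12 to 0.13 for E2F1, -0.30 to 0.19 for E2F5 and -0.30 to 0.18 for E2F8. With shRNA-146 they were -0.041 to 0.33 for E2F1, -0.35 to 0.055 for E2F2, -0.081 to 0.15 for E2F3, -0.14 to 0.11 for E2F4, -0.24 to 0.54 for E2F5 and -0.16 to 0.061 for CCNE1. For the mean they were -0.061 to 0.17 for E2F1, -0.15 to 0.0023 for E2F3, -0.19 to 0.25 for E2F5 and -0.048 to 0.42 for E2F8. Between the shRNAs they were -0.050 to 0.32 for E2F1, -0.013 to 0.46 for E2F2, -0.098 to 0.68 for E2F5, -0.10 to 0.15 for E2F6 and -0.20 to 0.61 for NFATC2. Every member had at least 91 counts in each library. Over all genes the chi-square between libraries of a group, per degree of freedom, was 22.4 to 432, and the share of counting error was not worked out for single members.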
